A study of Mus musculus with 2 samples.

Results

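Muc13, Gm15915, Kcng2, Gdf3, Ass1, Mst1r, Trib2 and Car1 are 8 of the 32285 genes in the count matrices of E14.5 fetal liver cells, and 8 of the 20572 with at least 1 unique molecular identifier (UMI, the tag that counts an RNA molecule once) in either library. They were selected on measured values, because they lead a Kit-positive, Ly6a-low cluster of these cells that was read as early erythroid progenitors. Their levels by cell type therefore describe that choice and are no test of it. The difference between genotypes was not a stated ground of the choice. Gm15915, though, had 3875 UMIs in WT and 24 in KO and so could lead the cluster only through its WT cells. Its lower KO level, and counts and medians over all 8 genes, are therefore not independent of the choice. Single-cell RNA-seq was made by the 10x Genomics method from fetal liver of the CD1 strain, with 1 IκBα wild-type library pooled from 2 embryos (WT) and 1 IκBα knockout library pooled from 3 embryos (KO). IκBα, encoded by Nfkbia, holds NF-κB factors inactive, and the comparison asks how its loss alters the blood cells of the fetal liver. The labels give the sorted cells as LSK (lineage-negative, Sca-1-positive, Kit-positive), while the sample titles say LT-HSC. With 1 pooled library for each genotype there is no replicate, so no test between genotypes was possible, embryo and genotype cannot be told apart, and each interval given is a 95% exact interval of counting error only.

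Erythroid cells arise from stem cells through progenitors that still carry Kit, the receptor for stem cell factor. Gata2 is high early on and gives way to Gata1, and Klf1 then drives the red cell programme of haemoglobin, membrane and iron genes. The fetal liver is the main site of red cell formation at this stage. Of the 8 genes, Mst1r encodes the receptor tyrosine kinase RON, whose ligand is macrophage-stimulating protein, and Gdf3 a secreted ligand of the TGF-β superfamily. Muc13 encodes a transmembrane mucin and Kcng2 a modifier subunit of voltage-gated potassium channels. Ass1 encodes argininosuccinate synthase of the arginine and urea pathways, Car1 the red cell enzyme carbonic anhydrase 1, and Trib2 a pseudokinase that acts as an adaptor in protein degradation. Gm15915 is a long non-coding RNA.

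The WT library held 109122324 UMIs in 3840 barcodes and the KO library 100029143 in 4928, of which 3458 and 4417 cells were kept. The median kept cell had 28065 UMIs in WT and 19560 in KO, so WT was 1.43 times deeper per cell. Nfkbia had 1478 UMIs in the kept WT cells and 7 in the kept KO cells, as the genotype labels say. The pools also differed in sex: 0.116% of the WT cells and 17.4% of the KO cells carried RNA of Y-linked genes without Xist. The libraries shared 7 barcodes. Against the sorted phenotype, RNA of Ly6a, the gene of Sca-1, had a UMI in 12.1% of the WT cells and 8.24% of the KO cells, Kit RNA in 57.9% and 44.1%, and Klf1 RNA in 56.1% and 59.9%.

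Cells were placed in gates by genes outside the set of 8, scaled to 10000 UMIs per cell. Cells high in hepatocyte, macrophage, endothelial, megakaryocyte, neutrophil, monocyte or mast cell genes were taken out first. Cells high in lymphoid genes were set apart only among those with Klf1 under 0.5 and outside the stem-cell gate. The rest formed an axis of 6 gates, from the stem-cell gate (Hlf, Mecom, Procr, Mllt3, Fgd5 and Ly6a together at 3 or more) through Ly6a-positive and Kit-positive Klf1-low cells to the Klf1-middle gate (Klf1 from 0.5 to 2.5) and the Klf1-high gates (2.5 or more) with and without Kit at 0.5. The remaining Kit-low Klf1-low cells lay off the axis. The Klf1-middle gate held 440 of the WT cells, 12.7% (11.6 to 13.9), and 743 of the KO cells, 16.8% (15.7 to 18). The stem-cell gate held 444 and 408 cells, the Klf1-high Kit-positive gate 251 and 265, and the Klf1-high Kit-low gate 1073 and 1365.

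The label of an early erythroid progenitor was set beside genes that are no members. Ly6a and Hlf help to define the stem-cell gate, so their high level there follows from how it was drawn and is no test. In the Klf1-middle gate Ly6a stood at 2.92 counts per 1000000 UMIs (CPM) in WT and 2.41 in KO, against 33.6 and 47.3 in the stem-cell gate, and Hlf at 18.2 and 13.8 against 289 and 262. Gata1 was at 91.4 and 92.7 CPM, Epor, the erythropoietin receptor, at 90.3 and 98.6, and Tfrc, the transferrin receptor, at 191 and 209. Kit was at 60.6 and 45.9 CPM. The gate thus had the markers of the label, but it was mixed for Kit, since 181 of its WT and 240 of its KO cells passed the Kit cutoff.

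Gm15915 (ENSMUSG00000085723) lies on the minus strand at chr10:93674218-93683322 of GRCm38, with 6 exons in 1 transcript, inside the gene Ntn4, which runs on the plus strand from 93640681 to 93747207 and encodes netrin 4. Muc13 lies at chr16:33794037-33819934 on the plus strand, Gdf3 at chr6:122605403-122610087 on the minus strand, Ass1 at chr2:31470207-31520672 on the plus strand, Mst1r at chr9:107906873-107920383 on the plus strand, Trib2 at chr12:15791727-15816922 on the minus strand and Car1 at chr3:14766216-14808368 on the minus strand. The 5′ end of Muc13 overlaps the antisense gene Gm15657. The sources used here do not state whether counting used the strand, so reads of Muc13 and Gm15657, and of Gm15915 and Ntn4, cannot be told apart with certainty.

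Upstream sequence is shown for Gm15915, the gene whose level differed most between the genotypes, and for Mst1r, the gene with no UMI in the WT stem-cell gate. The bases upstream of the gene's start were taken from the RefSeq promoter windows of GRCm38.p6, which held 5 of the 8 genes, Muc13, Gm15915, Ass1, Mst1r and Trib2. They are given 5′ to 3′ on the gene's strand. Capitals mark CACCC, the core of the motif of Klf1 and related factors. GATAA, the core of the GATA factor motif, was searched on both strands as well and occurs in neither sequence.
Gm15915, chr10:93683323-93683572, minus strand: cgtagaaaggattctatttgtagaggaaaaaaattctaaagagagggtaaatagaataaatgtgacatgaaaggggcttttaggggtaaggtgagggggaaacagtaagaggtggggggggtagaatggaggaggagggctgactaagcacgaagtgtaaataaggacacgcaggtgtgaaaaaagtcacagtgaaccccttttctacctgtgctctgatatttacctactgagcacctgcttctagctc
Mst1r, chr9:107906639-107906872, plus strand: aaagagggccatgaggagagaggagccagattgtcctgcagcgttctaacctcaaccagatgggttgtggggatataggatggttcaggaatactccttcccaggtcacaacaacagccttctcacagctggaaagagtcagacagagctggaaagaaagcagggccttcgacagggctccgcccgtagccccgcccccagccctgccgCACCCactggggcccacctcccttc
Over all 32851 promoter windows in the table, each taken whole and on both strands, 25.4% held GATAA, 57.5% CACCC and 17.2% CAGATG, the form of the E-box bound by the Tal1 complex. The Gm15915 and Trib2 windows held none of the 3. The Ass1 window held 1 CACCC, and the window at the first start of Mst1r 1 CACCC and 1 CAGATG, and that at its second start 1 GATAA and 3 CACCC. The window at the first start of Muc13 held 1 CAGATG and that at its second start 1 GATAA. A match is a description of these letters only.

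All 8 genes stood higher in the Klf1-middle gate than in the stem-cell gate in both libraries, but by very different amounts. Car1 and Mst1r were nearly absent from the stem-cell gate. Car1 went from 0.968 to 72.9 CPM in WT, a ratio of 75.3, and from 0.853 to 66.2 CPM in KO, a ratio of 77.7. Mst1r had 0 UMIs in the WT stem-cell gate and 9.77 CPM in the Klf1-middle gate, at least 23.5-fold higher against 3 UMIs in the whole gate, and in KO went from 0.213 CPM, a single UMI, to 10.2 CPM.

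Kcng2 and Trib2 had the same form. Kcng2 went from 0.277 to 9.36 CPM in WT and from 0.426 to 7.11 CPM in KO, and the stem-cell values rest on 2 UMIs in each library. Trib2 went from 0.553 CPM, 4 UMIs, to 10.6 CPM in WT and from 0.64 CPM, 3 UMIs, to 7.5 CPM in KO. These 4 genes, with Gm15915 in WT, form the part of the set that marks the step from stem cells most sharply.

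The other 3 genes were already present in stem cells. Ass1 was at 36.1 CPM in the WT and 40.5 CPM in the KO stem-cell gate, and at 73.9 and 48.4 CPM in the Klf1-middle gate, ratios of 2.05 and 1.2. Gdf3 was at 7.75 and 8.53 CPM in the stem-cell gate and at 26.7 and 23.5 in the Klf1-middle gate, ratios of 3.45 and 2.75. Muc13 was at 4.01 and 2.34 CPM in the stem-cell gate and at 21.4 and 11.8 in the Klf1-middle gate, ratios of 5.34 and 5.04. Ass1 in KO is thus hardly set apart from stem cells at all, with a log2 ratio of 0.26 (0.03 to 0.49).

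**Figure D1:**
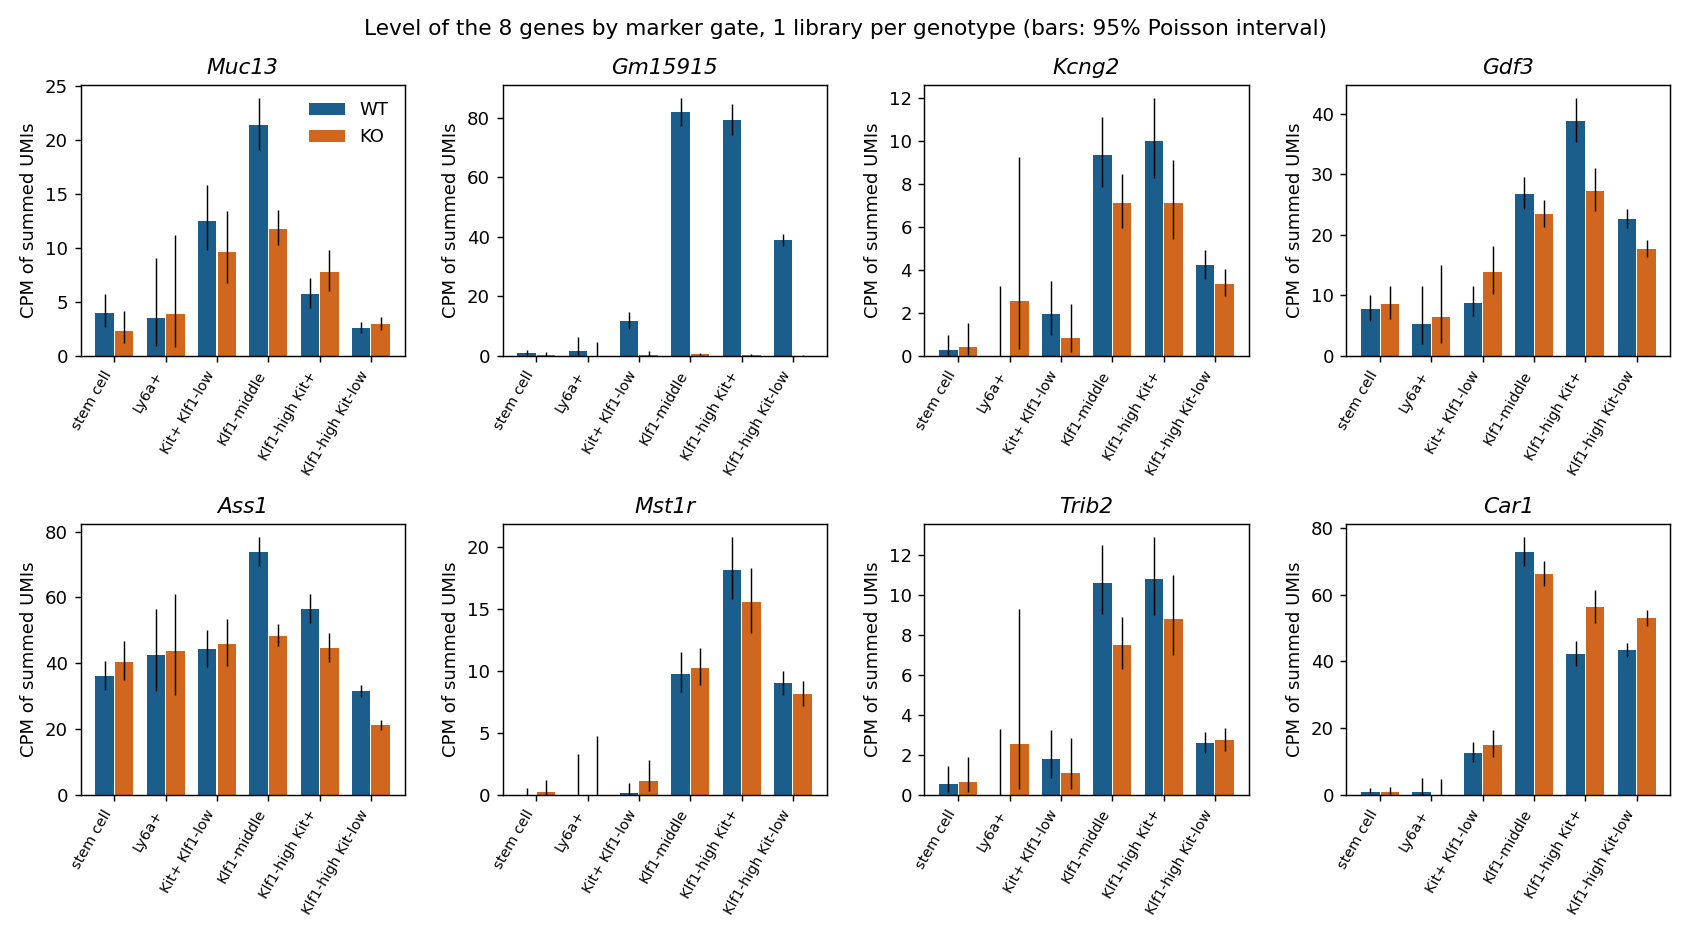
Level of each gene in CPM, on a scale of its own from 0, in the 6 gates from stem cells to Klf1-high Kit-low cells, as bars for the WT and the KO library with 95% exact Poisson intervals. Car1 climbs from 0.968 and 0.853 CPM in the stem-cell gate to 72.9 and 66.2 in the Klf1-middle gate, while Gm15915 stays below 1 CPM in the KO gates shown.

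The genes then parted within the erythroid gates. Muc13, Gm15915, Ass1 and Car1, 4 of the 8, had the highest level of the 6 axis gates in the Klf1-middle gate in both libraries, although Gm15915 had 11 UMIs there in KO. Of the 11522 genes with at least 200 UMIs, 41, or 0.356%, had that place, and since the genes were selected for it nothing is read from the difference. With gates read on cells thinned to 5000 UMIs, or with doubled cutoffs, 0 of the 8 had it in both libraries, so the place within the erythroid gates depends on how they are drawn. Gdf3, Mst1r and Trib2 were highest in the Klf1-high Kit-positive gate in both libraries, and Kcng2 in that gate in WT and in the Klf1-middle gate in KO. Of the 4 placed in the Klf1-middle gate, Car1 was set apart from both neighbouring gates beyond counting error in both libraries. Gm15915 in WT did not differ from the Klf1-high Kit-positive gate, with a log2 ratio of 0.05 (-0.08 to 0.18), nor did Ass1 in KO, with 0.12 (-0.06 to 0.29), and Muc13 in KO did not differ from Kit-positive Klf1-low cells, with 0.29 (-0.23 to 0.85). For Kcng2 and Trib2 the Klf1-middle and Klf1-high Kit-positive gates did not differ beyond counting error either, with Kcng2 at 9.36 against 10 CPM in WT and 7.11 against 7.11 in KO.

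Muc13 was present before the Klf1-middle gate and low at the end of the axis. It was at 12.5 and 9.67 CPM in Kit-positive Klf1-low cells, at 21.4 and 11.8 in the Klf1-middle gate, and at 2.61 and 2.97 in Klf1-high Kit-low cells, so that the Klf1-middle level was 8.21 times the last in WT and 3.98 times in KO. Mst1r reached 18.1 CPM in WT and 15.5 in KO in the Klf1-high Kit-positive gate, above its 9.77 and 10.2 in the Klf1-middle gate with intervals that did not overlap. Gdf3 reached 38.8 and 27.3 CPM there, and its KO value did not differ from the 23.5 CPM of the Klf1-middle gate beyond counting error. Car1 held 43.3 and 53 CPM in Klf1-high Kit-low cells, where Muc13 and Trib2, at 2.59 and 2.73 CPM, had returned to low levels.

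Cells with a UMI were counted after each cell was thinned to 5000 UMIs, because the WT cells were deeper. In the Klf1-middle gate, with 438 WT and 739 KO cells, an Ass1 UMI was present in 24.9% and 15.3% of cells, Car1 in 18.7% and 18.1%, and Gdf3 in 10.5% and 8.25%. Muc13 was found in 8.9% and 4.74%, Mst1r in 5.25% and 3.79%, Trib2 in 4.57% and 3.38% and Kcng2 in 2.97% and 2.44%. The genes that lead the cluster were therefore each seen in a minority of the gate's cells at this depth. For comparison, in the lymphoid-primed gate, where red cell genes should be absent, Ass1 was found in 8.33% and 8.05%, Car1 in 0% and 0.671% and Muc13 in 0% and 0.671%. The median kept cell of that gate had 28385 UMIs in WT and 17727 in KO, and that of the Klf1-middle gate 32496 and 21522. Ass1 was found in 17.2% and 19.8% of stem-cell gate cells, so its positive cells alone do not separate the gates. In the stem-cell gate Mst1r had a UMI in 0 of the 429 WT cells and 0 of the 383 KO cells, which allows a share of cells with a UMI at this depth of up to 0.699% and 0.783% against 3 cells.

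Bins of Klf1 itself gave a finer order by Klf1 level, over cells in no gate of another lineage, with lymphoid-primed cells kept. Whether this is also an order of stage was not tested. Over the WT bins from 1 to 4 the globin gene Hbb-bt stood at 9918, 9209 and 9602 CPM, and at 25165 at Klf1 of 6 and over. In KO it was at 11356 CPM above 0 and under 1, 11213 from 1 to 2 and 10905 from 2 to 3. Muc13 was highest among cells with Klf1 above 0 and under 1 per 10000 UMIs in both libraries, at 30.2 CPM in WT and 29.7 in KO, and declined to 0.297 and 1.96 CPM at Klf1 of 6 and over. Gata2 had its highest level in the same bin, at 59.3 and 47.4 CPM. In WT Muc13 was thus highest at lower Klf1 than the other 7 genes.

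Gm15915, Kcng2, Ass1, Trib2 and Car1 were highest in WT at Klf1 from 1 to 2, at 96, 9.76, 81.4, 10.9 and 86.1 CPM. In KO, Ass1, Trib2 and Car1 had their highest level 1 bin of Klf1 lower, at 63, 7.65 and 70.4 CPM. Gdf3 was highest in that bin too at 27.5 CPM, against the bin from 3 to 4 at 30.4 CPM in WT. Kcng2 was highest from 1 to 2 in KO as well, at 7.96 CPM. The bin above 0 and under 1 held unlike cells in WT and KO, with medians of 26296 and 18507 UMIs. In it Klf1 was at 49.2 and 66.1 CPM and the globin gene Hbb-bt at 4315 and 11356. Hlf was at 62.4 and 31.8 CPM there and Ly6a at 6.34 and 8.26. The part of this in the KO place at lower Klf1 was not tested. In WT Mst1r was highest at higher Klf1 than these genes, with 14.4 CPM from 5 to 6, and in KO had 11 CPM at 2 to 3. For Kcng2, Trib2 and Mst1r the intervals of the highest bin and the next higher bin of Klf1 overlapped in both libraries. Toward the highest Klf1 bin Trib2 was down to 0.89 and 0.56 CPM and Kcng2 to 2.08 and 1.4, whereas Car1 stayed at 55.2 and 53.2 and Mst1r at 8.31 and 6.16. In WT Gm15915, Kcng2, Ass1, Trib2 and Car1 thus shared the bin from 1 to 2. In KO Muc13, Gdf3, Ass1, Trib2 and Car1 shared the bin above 0 and under 1. For Gdf3, Ass1 and Car1 the KO intervals in that bin overlapped those of the next higher bin. Ass1 was at 63 (54.7 to 72.3) against 52.4 (47.5 to 57.7) CPM.

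**Figure D2:**
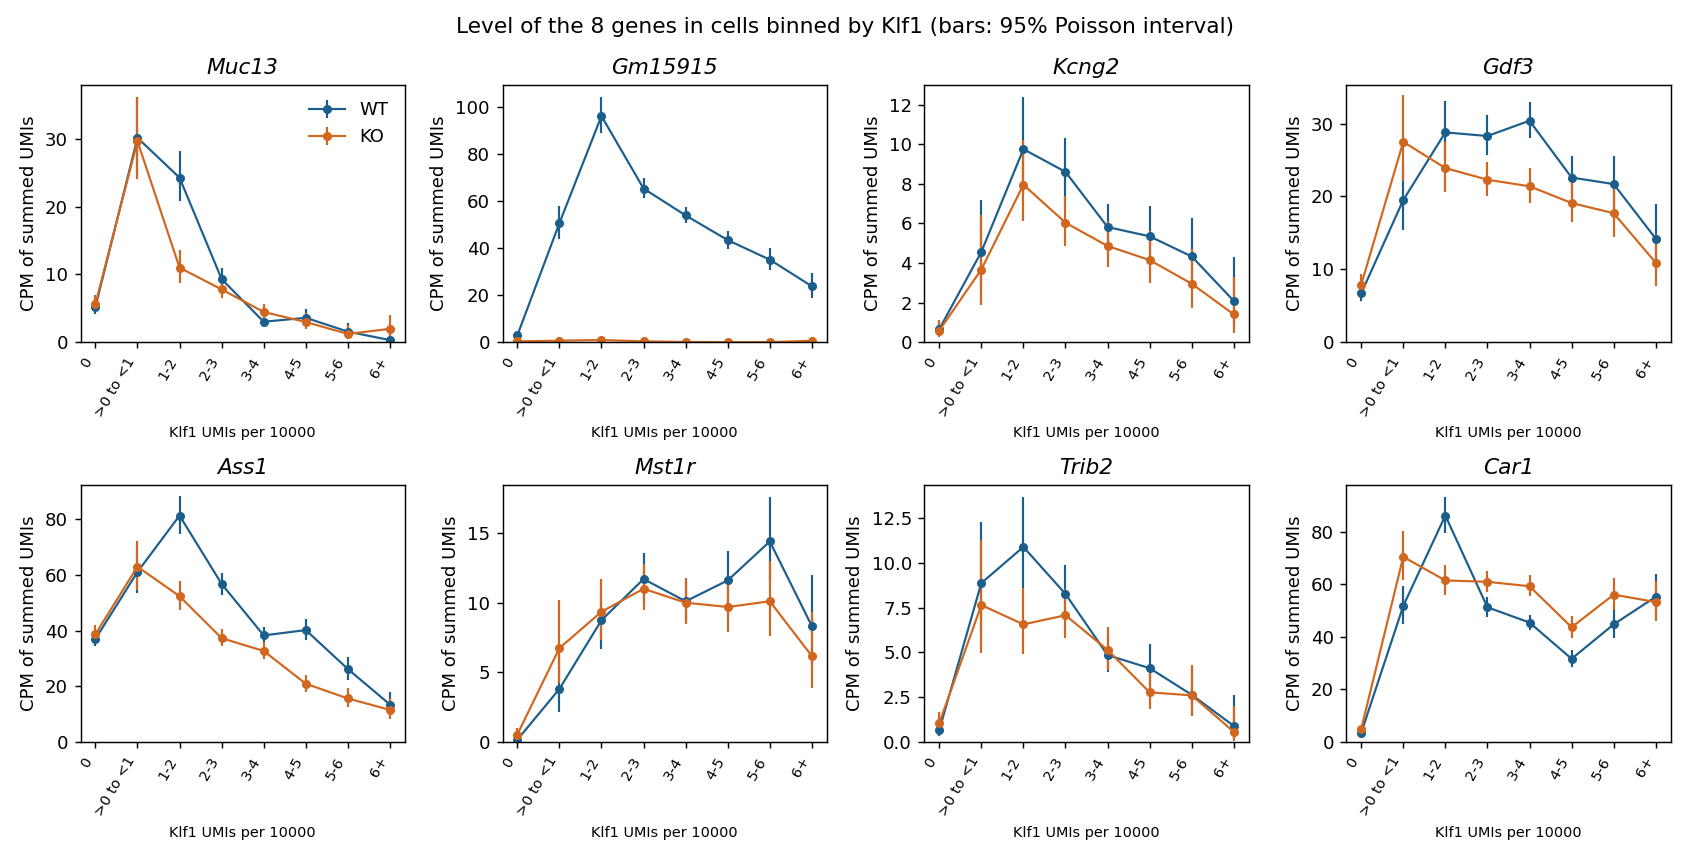
Level of each gene in CPM across 8 bins of Klf1 UMIs per 10000, for the WT and the KO library. Cells are those of no other lineage, with lymphoid-primed cells kept. Points are joined by lines and have 95% exact Poisson intervals. Muc13 has its highest value, 30.2 and 29.7 CPM, in the bin above 0 and under 1, and Mst1r in WT its highest value, 14.4 CPM, in the bin from 5 to 6.

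Outside the axis, 2 of the genes had higher levels in cells of other lineages than in the erythroid gates. Ass1 was highest in the hepatocyte gate, at 209 CPM over 34 WT cells and 162 CPM over 74 KO cells. Muc13 reached 40.3 CPM in the megakaryocyte gate of 27 WT cells and 25.8 CPM in that of 155 KO cells, and 34.5 CPM, 11 UMIs, in 15 KO cells of the mast and basophil gate. It was at 11 and 9.85 CPM in the neutrophil gate. In the 33 WT cells of the monocyte and dendritic gate Car1 stood at 37.3 CPM, from 39 UMIs in 4 cells, and Gm15915 at 26.8, from 28 UMIs in 5 cells, and in the 54 KO cells Car1 was at 3.74 CPM and Gm15915 at 0. Muc13 is therefore not particular to erythroid cells in these libraries, and Ass1 is a liver cell gene as well.

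The genes were also looked at within single cells of the Klf1-middle gate, at 5000 UMIs per cell. Of the 28 pairs among the 8 genes, 23 in WT and 22 in KO were found in the same cell more often than the product of their shares, with median ratios of 1.68 and 1.93. Among the 39 Muc13-positive WT cells 51.3% held an Ass1 UMI, against 22.3% of the Muc13-negative cells, and in KO the shares were 45.7% of 35 against 13.8%. Trib2 and Gdf3 were found together in 7 WT cells, 3.33 times the product. Muc13 and Mst1r were highest in WT at the lowest and the highest Klf1 among the 8 genes. They shared 2 cells in WT, a ratio of 0.977, and 2 cells in KO, a ratio of 1.51. These ratios describe cells of 1 library each that differ in stage, and counts this sparse leave many pairs at a few cells.

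At least 3 of the 8 genes were found in 52 of 438 WT cells of the Klf1-middle gate, 11.9% (9 to 15.3), in 28 of 739 KO cells, 3.79% (2.53 to 5.43), and in 0 of the stem-cell gate cells of either library. Over the 7 genes other than Gm15915, at least 3 were found in 7.76% (5.44 to 10.7) and 3.79% (2.53 to 5.43), and at least 2 in 19.9% (16.2 to 23.9) and 13.9% (11.5 to 16.6) of these cells, and in 18% (13.4 to 23.3) and 11.7% (8.12 to 16.3) of Klf1-high Kit-positive cells. In the latter gate at least 3 of the 7 were found in 4% and 4.17%. At least 2 of the 7 were found in 1.4% and 0.783% of stem-cell gate cells and in 0% and 0.671% of lymphoid-primed cells. At least 3 of the 7 were found in 0% of the cells of these gates in both libraries. Of all cells with 3 or more of the 8 genes, 40% of 130 in WT and 42.4% of 66 in KO lay in the Klf1-middle gate, and most of the others in the Klf1-high gates.

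**Figure D3:**
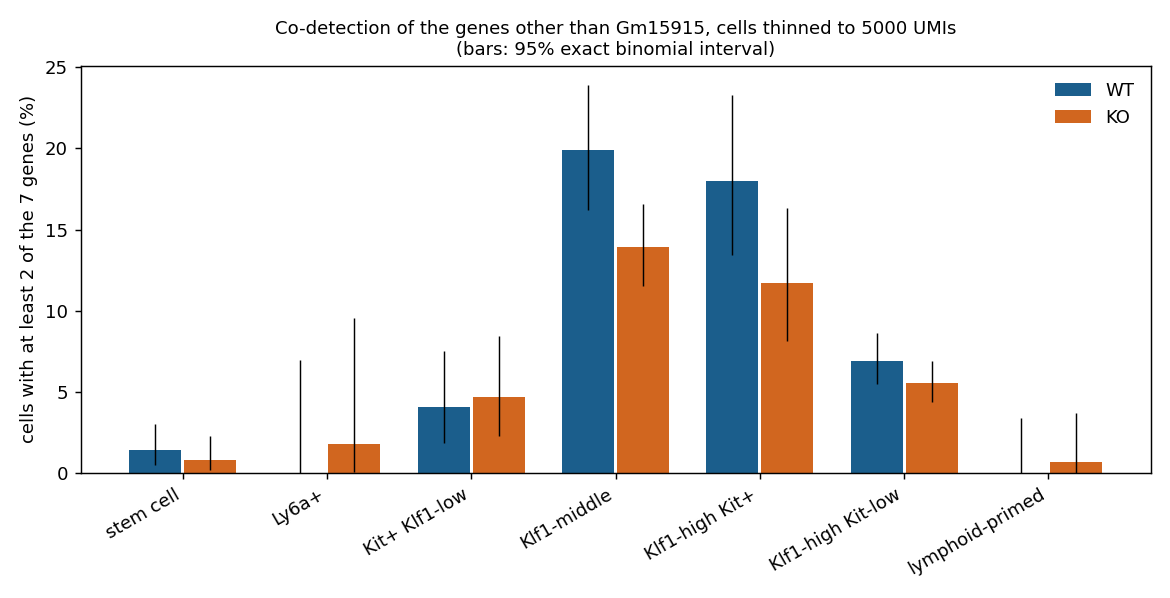
Percent of cells with at least 2 of the 7 genes other than Gm15915 after thinning to 5000 UMIs, by gate and library, with 95% exact binomial intervals. The share is 19.9% in WT and 13.9% in KO in the Klf1-middle gate and 1.4% and 0.783% in the stem-cell gate.

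Between the genotypes, Gm15915 differed far more than any of the other 7. It had 3875 UMIs in WT and 24 in KO, was found in 885 of 3458 WT cells, 25.6%, and in 20 of 4417 KO cells, 0.453%, with up to 47 UMIs in a WT cell and 4 in a KO cell. In the Klf1-middle gate it was at 81.9 CPM in WT (77.3 to 86.6) and 0.616 CPM in KO (0.307 to 1.1), a log2 ratio of KO to WT of -7.05 (-8.06 to -6.21). The log2 ratio was -8.45 (-11.5 to -6.6) in the Klf1-high Kit-positive gate, with 915 UMIs against 2, and -8.32 (-10.2 to -6.96) in the Klf1-high Kit-low gate, with 1457 against 4. In Kit-positive Klf1-low cells 66 UMIs stood against 1, a log2 ratio of -5.4 (-10.7 to -2.87).

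Over all kept cells the log2 ratio of Gm15915 was -7.21 (-7.85 to -6.63), the second lowest of 11522 genes after Nfkbia itself at -7.59. These 2 genes were the only ones of the 11522 below -3, and the next was Gm14403 at -2.86, with 748 UMIs against 94. None of the 20 KO cells with a UMI carried a barcode shared with WT. The difference was as large among female cells alone, with 3793 UMIs in WT and 19 in KO and a log2 ratio of -6.99 (-7.72 to -6.34). Within KO, 770 male cells held 3 of the UMIs and 3066 female cells 19. Because each genotype is 1 pool of embryos, whether the absence comes with the Nfkbia allele or with the embryos that were pooled cannot be told apart.

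The genes around Gm15915 did not share its difference, apart from its host. Within 1 Mb lie 28 genes, of which 16 had at least 50 UMIs over both libraries. Their median log2 ratio of KO to WT was -0.12, with 1 gene lower and 2 genes higher by 1.5-fold, where 1.81% and 3.61% of the 13680 genes with 50 UMIs in all kept cells were lower and higher. The lower gene was Ntn4, with 61 UMIs in WT and 10 in KO, a log2 ratio of -2.48 (-3.61 to -1.5), and in the Klf1-middle gate it had 8 against 0. The higher genes were Hal, histidine ammonia lyase, with 37 against 74 UMIs and Cfap54 with 43 against 62. Snrpf, a spliceosome gene on one side, had a log2 ratio of -0.29 and Metap2, on the other, of -0.01.

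**Figure D4:**
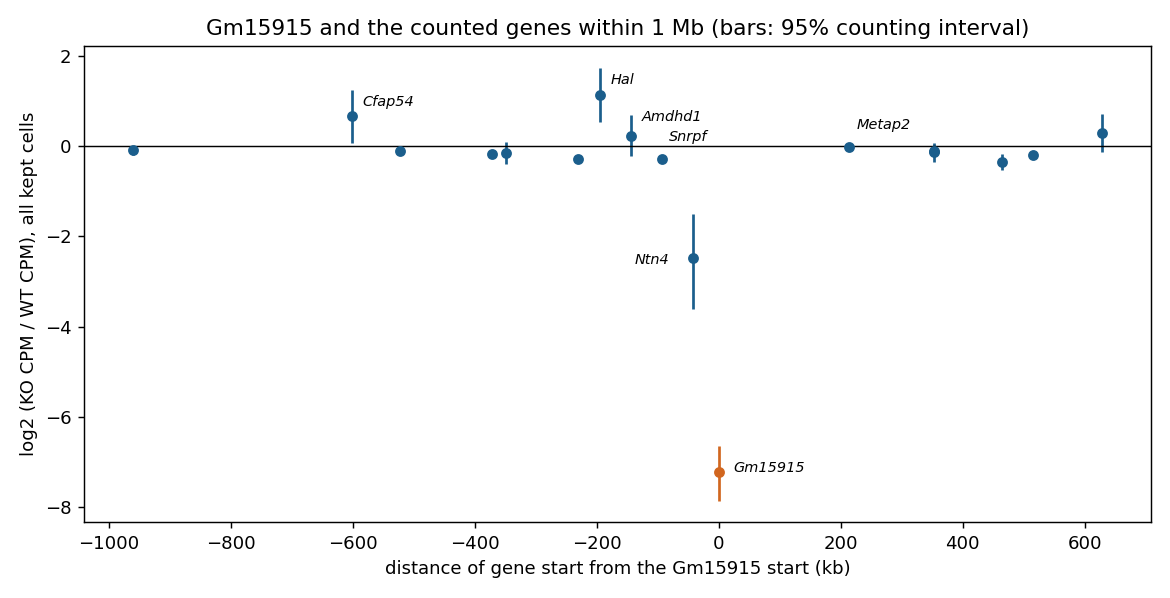
Log2 ratio of KO to WT over all kept cells for genes within 1 Mb of Gm15915 with at least 50 UMIs over both libraries, against the distance of the gene in kb, with 95% exact counting intervals. Gm15915 is at -7.21 and Ntn4 at -2.48, and the median of the 16 neighbours, Ntn4 among them, is -0.12.

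The other 7 genes differed less. In the Klf1-middle gate Muc13, Gm15915 and Ass1, 3 of the 8, were at least 1.5-fold lower in KO and none was higher, where 3.39% of the 10085 genes with 50 UMIs were lower by that fold and 1.29% higher. The median log2 ratio of the 8 was -0.45, and that of all these genes -0.06. With gates read on cells thinned to 5000 UMIs the median of the 8 was 0.00102 and 1 gene, Gm15915, was lower by that fold. The share of all genes was not computed under that setting. In the Klf1-high Kit-positive gate 1 of 8 was lower and none higher, against 1.22% and 2.8% of 9076 genes, and in the Klf1-high Kit-low gate 1 of 8 lower and none higher, against 1.37% and 1.67% of 10294. Gm15915 was that gene in both Klf1-high gates. In Kit-positive Klf1-low cells 5 of the 8 could be counted, of which Gm15915 was lower and Gdf3 higher, against 2.55% and 1.58% of 8677 genes.

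Ass1 was lower in KO in the Klf1-middle and both Klf1-high gates. It went from 73.9 CPM in WT (69.6 to 78.5) to 48.4 in KO (45.2 to 51.8) in the Klf1-middle gate, a log2 ratio of -0.61 (-0.74 to -0.48). The ratio was -0.34 (-0.52 to -0.15) in the Klf1-high Kit-positive gate, where doubled cutoffs gave -1.69, and -0.58 (-0.72 to -0.44) in the Klf1-high Kit-low gate. In stem cells, at 36.1 and 40.5 CPM, and in Kit-positive Klf1-low cells, at 44.2 and 45.8, it did not differ beyond counting error. By Klf1 bin the ratio was 0.04 (-0.23 to 0.32) above 0 and under 1, -0.64 (-0.82 to -0.45) from 1 to 2, and -0.22 (-0.86 to 0.42) at 6 and over. Within KO, male cells of the Klf1-middle gate were lower than female ones by a log2 ratio of -0.45 (-0.74 to -0.18), and female cells alone gave -0.52 (-0.67 to -0.38) for KO against WT. Ass1 was also lower in the KO hepatocyte gate, at a log2 ratio of -0.37 (-0.57 to -0.16).

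Muc13 was lower in KO in the Klf1-middle gate, at 11.8 against 21.4 CPM and a log2 ratio of -0.86 (-1.12 to -0.60), but this value depended on where the gate was drawn. It was -1.39 (-1.8 to -0.99) in the Kit-positive cells of the gate, at 28.3 against 10.8 CPM, and -0.32 (-0.68 to 0.05) in the Kit-low cells, at 15.4 against 12.4. By Klf1 bin it was -0.02 (-0.43 to 0.38) above 0 and under 1, -1.15 (-1.54 to -0.76) from 1 to 2, and 0.56 (0.03 to 1.1) from 3 to 4. With gates read on cells thinned to 5000 UMIs it was 0.02. Among the Klf1 bins Muc13 was thus alike in both libraries in the bin where it was highest. That bin held unlike cells in WT and KO, as given above. The lower KO level lay in the next bin of Klf1. In the megakaryocyte gate, of 27 WT and 155 KO cells, Muc13 was also lower in KO, at a log2 ratio of -0.64 (-1.16 to -0.11).

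Trib2 and Kcng2 were lower in KO by amounts near the limit of counting error. Trib2 stood at 10.6 CPM in WT and 7.5 in KO in the Klf1-middle gate, a log2 ratio of -0.51 (-0.85 to -0.16), and did not differ beyond counting error in the Klf1-high gates, at -0.30 (-0.72 to 0.12) and 0.08 (-0.35 to 0.51). Kcng2 gave -0.40 (-0.76 to -0.04) in the Klf1-middle gate and -0.50 (-0.96 to -0.04) in the Klf1-high Kit-positive gate. With gates read on thinned cells the Klf1-middle values became 0.18 for Trib2 and 0.05 for Kcng2, against -0.40 for Ass1. Mst1r, at 9.77 and 10.2 CPM, gave 0.07 (-0.25 to 0.39), and its ratio lay within counting error in the Klf1-high gates too, at -0.23 and -0.15.

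Gdf3 and Car1 differed in direction along the axis. Gdf3 was at 8.83 CPM in WT and 13.8 in KO in Kit-positive Klf1-low cells, a log2 ratio of 0.65 (0.05 to 1.24), at 38.8 and 27.3 in Klf1-high Kit-positive cells, -0.51 (-0.74 to -0.28), and at 22.6 and 17.7 in Klf1-high Kit-low cells, -0.35 (-0.51 to -0.20). Car1 was slightly lower in KO in the Klf1-middle gate, at -0.14 (-0.26 to -0.02), which became 0.07 with gates read on thinned cells, and higher in the Klf1-high Kit-positive gate, with 42.3 against 56.3 CPM and 0.41 (0.23 to 0.60), which became -0.21 with gates read on thinned cells, and in the Klf1-high Kit-low gate, with 43.3 against 53 CPM and 0.29 (0.19 to 0.39). The sign of the ratio thus differed between gates for both genes, though none of these ratios but that of Gdf3 in the Kit-positive Klf1-low cells passed 1.5-fold.

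**Figure D5:**
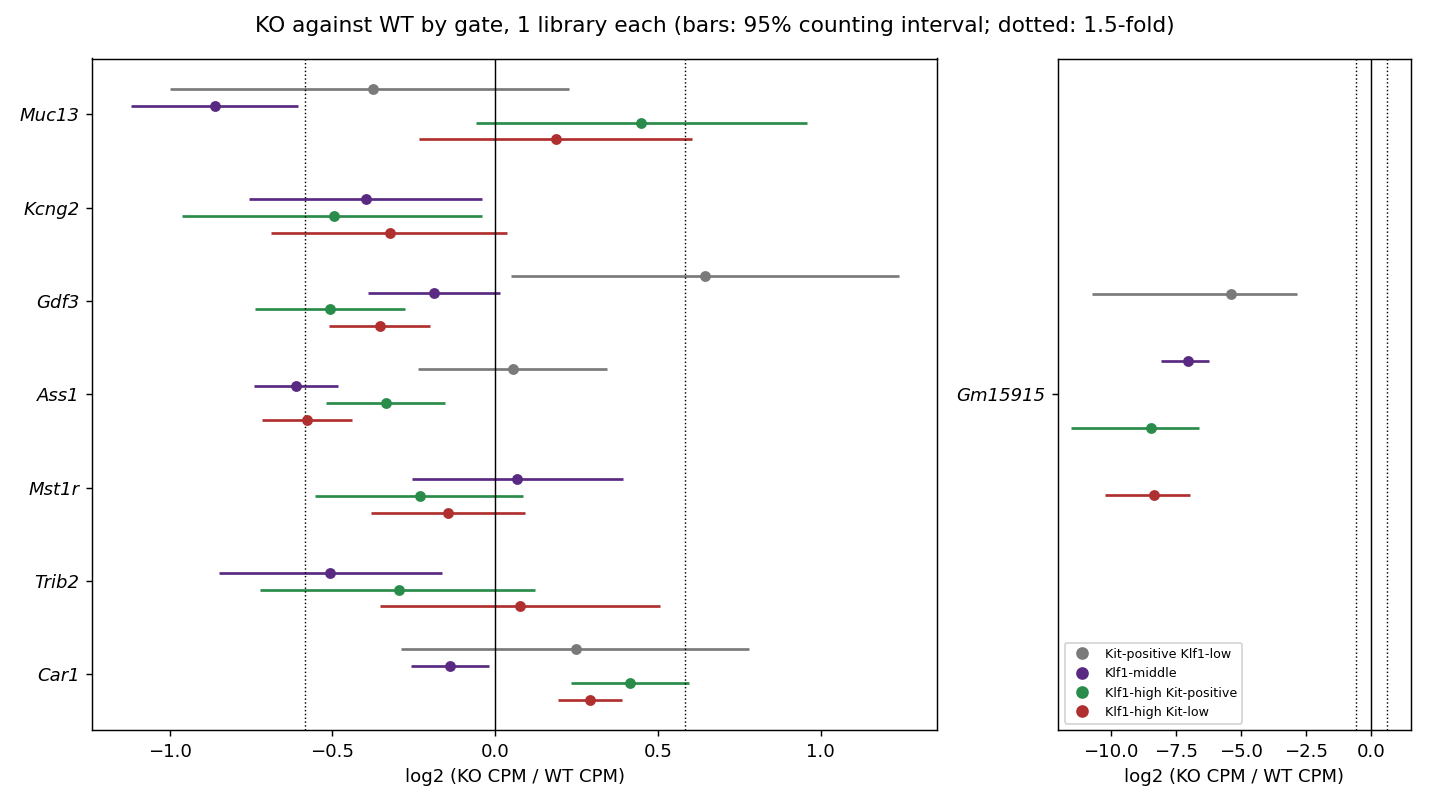
Log2 ratio of KO to WT CPM for each gene in 4 gates, 1 library for each genotype, with 95% exact counting intervals and dotted lines at 1.5-fold; Gm15915 has its own axis. Gm15915 lies at -7.05 in the Klf1-middle gate, Ass1 at -0.61 and Mst1r at 0.07, and Car1 changes from -0.14 in that gate to 0.29 in the Klf1-high Kit-low gate.

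The cells of the Klf1-middle gate were not the same mixture in both libraries. Klf1 was at 176 CPM in each, but Gata2 was at 27.7 CPM in WT and 17.7 in KO, a log2 ratio of -0.65 (-0.86 to -0.43), Kit at -0.40 (-0.54 to -0.26), Myb, a factor of immature progenitors, at -0.34 (-0.41 to -0.26), and Stat5a, a mediator of erythropoietin signalling, at -0.44 (-0.65 to -0.23). Of the 15 regulators of erythroid entry listed, 1, Gata2, was lower by 1.5-fold and none higher, with a median of -0.02. Of 18 genes of erythroid maturation, 2 were higher by 1.5-fold, the globin genes Hba-a1 at 0.70 and Hbb-bs at 0.69, and none was lower, with a median of 0.40. In the stem-cell gate the median over 10 counted maturation genes was 0.88. Over the whole libraries, haemoglobin made up 3.65% of UMIs in WT and 5.05% in KO. The part of this shift in the lower Muc13, Ass1 and Trib2 levels was not tested. The 6 cell cycle genes had a median of 0.07, and none passed 1.5-fold.

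Among the listed partners of the 8 genes none that could be counted passed 1.5-fold in the Klf1-middle gate. RON has its ligand Mst1 in 7 WT and 17 KO UMIs of the Klf1-middle gate, 0.475 and 0.952 CPM, close to absent there. Mst1 had 4 and 8 UMIs in the Klf1-high Kit-positive gate, where Mst1r was highest. In the Klf1-high Kit-low gate it had 64 and 48 UMIs, 1.71 and 1.46 CPM. In the Klf1-middle gate 3 of the 9 listed partners of RON had enough UMIs, and none passed 1.5-fold. These were its adaptors Grb2, at 108 and 96.6 CPM, Gab1, at 8.75 and 9.07, and Gab2, at 4.27 and 3.13. Of the 12 listed partners of Gdf3, 6 could be counted and none passed 1.5-fold, with the type II receptor Acvr2b at 4.14 and 3.36 CPM, the type I receptor Acvr1b at 2.1 and 1.57, and the signal transducer Smad3 at 6.65 and 4.53. Tdgf1, the co-receptor Gdf3 is known to use, and the related ligand Nodal had 0 UMIs in this gate in both libraries.

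Ass1 makes argininosuccinate, which Asl cleaves to arginine. Asl was at 16.1 CPM in WT and 16.2 in KO, a log2 ratio of 0.00, and Slc7a1, the arginine importer, at 30.2 and 30.8, so the difference in Ass1 was not shared by the next enzyme or the transporter. Odc1, which makes polyamines from ornithine, was at 368 and 423. None of the 4 counted genes of the 11 in that list passed 1.5-fold, and Arg2, Nos2 and Cps1 had 0 UMIs. Of the 7 potassium channel genes listed with Kcng2, Kcnn4, the calcium-activated potassium channel of red cells, could be counted, at 131 and 145 CPM.

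Trib2 is known to bring C/EBP factors to the ubiquitin ligase Cop1. Cop1 was at 52 and 53.9 CPM in the Klf1-middle gate, whereas Cebpa, a factor of the myeloid lineage, had 10 and 11 UMIs and the relatives Trib1 and Trib3 13 and 14 and 13 and 19. None of the 4 counted genes of that list passed 1.5-fold. Car2, the other main carbonic anhydrase of red cells, was at 939 and 1130 CPM, a log2 ratio of 0.27, and none of the 3 relatives of Car1 that could be counted, of 15, passed 1.5-fold. Of 8 transmembrane mucins and sialomucins, Cd164, at 35.1 and 38.5 CPM, and Emcn, at 4.21 and 4.25, could be counted, while Muc1, Muc4, Muc15, Muc16 and Muc20 had 0 UMIs and Muc3a a single one in KO.

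Genes with a like profile were ranked by Pearson's r of log2(CPM + 1) over 28 points, 14 gates in each of 2 libraries, among 11115 genes. The points share libraries and gates, so r is a description. Mst1r was closest to Sphk1, with 0.949, which is a sphingosine kinase on the maturation list, to Slc26a1, with 0.933, and to Pvt1, with 0.924. Car1 was closest to Sh2d4a (0.896), Slc25a21 (0.873) and Icam4 (0.871), an adhesion molecule of red cells. Gdf3 was closest to Sept8 (0.905), Hk1 (0.887) and Tal1 (0.859), a core erythroid factor.

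Kcng2 was closest to 1700006J14Rik (0.829), Ces2g (0.828) and Ube2v2 (0.826), and Trib2 to Ugcg (0.827), Smim13 (0.802) and Cyth3 (0.802). Ass1 was closest to Got2 (0.852), the mitochondrial aspartate aminotransferase, Eci1 (0.845) and Llgl2 (0.829). Muc13 was closest to its antisense neighbour Gm15657 (0.834), then to Parm1 (0.806) and Gse1 (0.759). Gm15915 was closest to Dynlt1a (0.838), Gm10076 (0.813) and Rps6kl1 (0.791), which were all lower in KO in the Klf1-middle gate, at 15.9 against 7.44 CPM, 1431 against 793 and 4.07 against 0.672. Its likeness thus followed the library more than the gate.

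The 8 genes varied in how close they were to one another on this scale. Against the mean of the other 7 profiles, r was 0.792 for Car1, 0.768 for Kcng2 and 0.725 for Gdf3, and 0.164 for Ass1, the lowest. With Klf1, r was 0.831 for Car1 and 0.823 for Mst1r but 0.141 for Muc13 and 0.084 for Ass1. The closest pair was Kcng2 and Trib2 at 0.816, followed by Mst1r and Car1 at 0.767, and the least alike were Ass1 and Trib2 at -0.079. To the mean of the 8 profiles the nearest genes outside the set were Mylk3 (0.873), 1700006J14Rik (0.871), Ces2g (0.861), Snhg3 (0.856), Helq (0.838), Rab4a (0.837), Sfxn1 (0.833), Mc2r (0.833), Sept8 (0.829) and Sowaha (0.828). Mylk3 went from 0.415 and 1.71 CPM in the stem-cell gate to 17.5 and 17.5 in the Klf1-middle gate, and Mc2r, a melanocortin receptor, from 0 in both libraries to 3.8 and 2.97.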

How the data were processed

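10x Genomics single-cell RNA-seq was made from E14.5 fetal liver LSK cells of 1 IκBα WT pool and 1 IκBα KO pool. The authors ran Cell Ranger (version 6.0.0) on the reads with mm10 (GRCm38) as reference and deposited raw UMI counts for each gene and barcode, 1 matrix for each genotype, with no normalization. Whether counting used the strand is not given in the sources used here. Gene positions were taken from GENCODE vM21.

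The genes, lists and gates were chosen with earlier results of these data known. Cells with fewer than 1000 genes or more than 20% mitochondrial UMIs were removed, 382 in WT and 511 in KO. Cells were assigned to 15 gates by marker UMIs per 10000, with the cutoffs given in the text and, for other lineages, summed markers of at least 30 for hepatocytes, 10 for macrophages, megakaryocytes and neutrophils, 5 for endothelial cells, 4 for monocytes or dendritic cells and for mast cells or basophils, and 2 for lymphoid-primed cells. UMIs were summed for each gate and library and divided by the gate's total to give CPM. Shares of cells were taken after each cell was thinned to 5000 UMIs, without the 57 WT and 101 KO cells below that. Intervals are 95% exact Poisson intervals for levels, Clopper-Pearson intervals for shares and conditional Clopper-Pearson intervals for ratios. They cover counting error only, because each genotype has 1 library, and no p-value was computed. A fold against 0 UMIs used a floor of 3 UMIs over the gate. Genes with at least 50 UMIs over both libraries in a gate were counted as higher or lower past 1.5-fold.

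Named genes are the 8 members, genes of lists of partners and regulators named with their values in either direction, the 3 genes of most like profile for each member and the 10 for their mean, among genes with at least 200 UMIs and without haemoglobin, mitochondrial and sex-linked genes. The neighbours of Gm15915, and the genes with the lowest ratio of KO to WT, were named after their values were seen. Ahsp, listed among the maturation genes, was not analysed here. Doublets were kept in the main values. Scrublet in scanpy (version 1.11.5) with an expected rate of 5% called 139 of 3458 WT and 266 of 4417 KO cells, of which 47 and 84 lay in the Klf1-middle gate. Alternatives were other cutoffs, gates on thinned cells, thinning depths, cell filters, doublets left out, female cells alone, means over cells, other scalings of CPM and no minimum of UMIs. The ratio and its interval were tested on simulated counts for the 10085 genes of the Klf1-middle gate, where 96% of the intervals of 200 changed genes and 95.7% of those of the others held the true value. Python (version 3.11.15), numpy (version 2.4.6), scipy (version 1.17.1), pandas (version 2.3.3) and matplotlib (version 3.10.9) were used.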

Additional observations from a re-analysis of the deposited data

Results flagged for a closer look

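Gdf3 and Car1 had ratios of KO to WT of opposite sign in different gates of the axis, with counting intervals that lay apart from 0. Gdf3 had a log2 ratio of 0.645 in Kit-positive Klf1-low cells, -0.506 in the Klf1-high Kit-positive gate and -0.354 in the Klf1-high Kit-low gate, and in the Klf1-middle gate between them -0.188 (-0.39 to 0.0137), which includes 0. Car1 had a log2 ratio of -0.139 in the Klf1-middle gate, 0.414 in the Klf1-high Kit-positive gate and 0.291 in the Klf1-high Kit-low gate. Gates read on thinned cells turned its sign in the Klf1-middle and Klf1-high Kit-positive gates. Over the alternatives its ratio ran from -0.321 to 0.165 in the former and from -0.213 to 0.488 in the latter. By Klf1 bin Car1 was at 0.444 above 0 and under 1, -0.488 from 1 to 2 and 0.251 from 2 to 3. With 1 library for each genotype the difference between the gates was not tested.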

How the results depend on the processing

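No paired analysis was possible because there was 1 WT and 1 KO library. No setting here says how far embryos differ. The loss of Gm15915 kept its direction under each alternative tried (log2 ratio in the Klf1-middle gate from -7.84 to -6.6), as did the lower Ass1 level (from -0.666 to -0.171). With gates read on cells thinned to 5000 UMIs, the Muc13 ratio in the Klf1-middle gate turned to 0.0171, the median of the 8 genes there to 0.00102, 1 gene was lower there and 2 in the Klf1-high Kit-positive gate, and 0 genes were highest in the Klf1-middle gate in both libraries. With doubled cutoffs 1 gene was lower in the Klf1-middle gate and 2 in the Klf1-high Kit-low gate, whose median became -0.471, 0 genes were highest in the Klf1-middle gate, and the Klf1-high Kit-positive gate gave no median. With means over cells 2 genes were lower in the Klf1-high Kit-positive gate and 2 highest in the Klf1-middle gate. After WT cells were thinned to the KO depth, 3 genes were lower in the Klf1-high Kit-positive gate. That thinning, the Kit-positive and Kit-low parts of the Klf1-middle gate and the median without Gm15915 were chosen after seeing the data. The cause of each change was not tested. Shares over all genes were not computed under the alternatives, so these counts have no background beside them and nothing is read from them about the 8 genes. Of 274 ratios of single genes under alternatives, 242 stayed within the counting interval of the reported value and 22 had the other sign. Of these 22, 1 was of a gene reported past 1.5-fold, Muc13 above.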
